A study of Mus musculus with 4 samples.

Results

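Cxcl9-positive macrophages and monocytes of the wounded skin were the cells that held at least 1 unique molecular identifier (UMI, a counted RNA molecule) of Cxcl9 and at least 1 of Csf1r, none of the T cell gene Cd3g, and fewer than 3 of the 7 genes Acp5, Gpnmb, Mmp19, Ocstamp, Met, Ednrb and Pdpn, which mark osteoclast-like cells. They numbered 76 of the 6443 cells with 200 to 3000 genes and at most 10% mitochondrial UMIs. Another 963 cells passed the same gate without a Cxcl9 UMI and served as the comparison within each library. Since the members were chosen by their Cxcl9 and Csf1r counts, these counts are given as a description. Gbp4, which was named as a marker of the cells from these same data, is treated in the same way.

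The 4 libraries came from 6-week-old C57/BL6j mice, 1 mouse each, with an 8 mm full-thickness skin wound. The Control group (2 libraries) received phosphate-buffered saline, and the hucMSC-Exo group (2 libraries) received 100 µg of exosomes from human umbilical cord mesenchymal stem cells, both under the skin at 4 sites every 48 h. Skin around the wound was taken on day 7 and sequenced as single cells. Skin is what the cell type label and the protocol give, although the tissue label gives parts of the intestine. Keratinocyte RNA was present in the gated cells: Krt14 had a UMI in 64 of the 76 members and in 733 of the 963 Cxcl9-negative cells. The kept cells held 4779405 to 11243740 UMIs per library. Library pairs shared 0 to 2 cell barcodes, and no member's barcode was among them.

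CXCL9 is a chemokine that is induced by interferon-γ and attracts activated T cells and natural killer cells through the receptor CXCR3. Interferon-γ acts through the kinases JAK1 and JAK2 on genes with GAS elements, while type I interferons act largely on genes with ISRE elements. Macrophages exposed to interferon-γ are known to make guanylate-binding proteins and p47 GTPases, which defend the cell against microbes, and to present more antigen. In a healing wound, monocytes enter from the blood and become macrophages that clear debris and later support repair.

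Cxcl9 lies on the minus strand of chromosome 5 (GRCm38, chr5:92321347-92328079), beside Cxcl10 (chr5:92346638-92348889). The promoters of Cxcl9 and of 3 genes that were higher in the Cxcl9-positive cells are shown because they differ from each other in the 2 interferon-response motifs that were searched for. Each window runs from 250 bases before to 50 after the RefSeq start (GRCm38.p6). They are chr5:92328030-92328329 on the minus strand for Cxcl9, chr3:142620413-142620712 on the plus strand for Gbp2, chr3:142496684-142496983 on the plus strand for Gbp5 and chr12:104235897-104236196 on the plus strand for Serpina3g. Capitals mark a GAS motif (TTCNNNGAA, its own reverse complement) or an ISRE motif (GAAA, any 2 bases and GAAA, on either strand).
Cxcl9: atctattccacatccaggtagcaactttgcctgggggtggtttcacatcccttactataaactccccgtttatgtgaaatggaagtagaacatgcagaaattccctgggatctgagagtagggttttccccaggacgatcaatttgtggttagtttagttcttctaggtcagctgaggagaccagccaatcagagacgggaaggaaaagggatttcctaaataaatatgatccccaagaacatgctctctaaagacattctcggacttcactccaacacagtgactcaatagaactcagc
Gbp2: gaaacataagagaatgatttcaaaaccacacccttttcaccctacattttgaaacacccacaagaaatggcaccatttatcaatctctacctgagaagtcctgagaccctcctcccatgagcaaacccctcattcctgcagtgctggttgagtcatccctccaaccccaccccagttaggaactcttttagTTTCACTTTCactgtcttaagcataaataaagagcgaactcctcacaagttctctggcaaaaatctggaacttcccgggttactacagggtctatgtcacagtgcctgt
Gbp5: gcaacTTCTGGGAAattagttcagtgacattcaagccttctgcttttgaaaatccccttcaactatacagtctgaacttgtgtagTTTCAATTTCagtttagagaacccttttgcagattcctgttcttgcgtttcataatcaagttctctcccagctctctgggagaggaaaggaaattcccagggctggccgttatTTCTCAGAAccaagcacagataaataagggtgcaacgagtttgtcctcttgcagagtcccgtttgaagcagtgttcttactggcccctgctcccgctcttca
Serpina3g: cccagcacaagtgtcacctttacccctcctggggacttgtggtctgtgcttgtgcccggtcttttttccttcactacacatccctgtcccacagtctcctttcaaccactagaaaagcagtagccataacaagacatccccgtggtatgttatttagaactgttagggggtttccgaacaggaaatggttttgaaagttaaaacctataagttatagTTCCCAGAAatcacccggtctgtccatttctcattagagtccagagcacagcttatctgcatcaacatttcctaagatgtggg
Gbp2 held 1 ISRE, Gbp5 held 2 GAS and 1 ISRE, and Serpina3g held 1 GAS, none of which overlapped. The Cxcl9 window held neither motif in these letters. Of the other genes higher in the Cxcl9-positive cells, Saa3 held 1 ISRE, and AW112010, Ccl8 and Ccl12 held neither. Of 32851 windows of this length, 8.30% held the GAS motif and 3.44% the ISRE motif. A match is a description of the sequence and not a bound site.

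The libraries contributed very unequally. Control 1 held 52 of the 76 members, Control 2 held 10, hucMSC-Exo 1 held 4 and hucMSC-Exo 2 held 10. Control 1 thus gave 68.4% of the members and 86.9% of their Cxcl9 UMIs from 17.0% of the gated cells. Among gated cells the Cxcl9-positive share was 29.4% in Control 1 (52 of 177, 95% exact Clopper-Pearson interval 22.8% to 36.7%), 2.99% in Control 2 (10 of 334, 1.44% to 5.44%), 2.11% in hucMSC-Exo 1 (4 of 190, 0.577% to 5.30%) and 2.96% in hucMSC-Exo 2 (10 of 338, 1.43% to 5.37%). Control 1 stood apart, and the intervals of the other 3 libraries overlapped. These intervals cover counting error only.

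Free RNA can place a Cxcl9 UMI in a cell that does not express the gene, so T cells (Cd3g present, Csf1r absent) were counted as a type that should lack it. Cxcl9 was seen in 0.952% of 525 T cells in Control 1, 0.142% of 704 in Control 2, 0.153% of 652 in hucMSC-Exo 1 and 0.405% of 740 in hucMSC-Exo 2. The T cells were shallower, with median depths of 3363 to 4392.5 UMIs against 5753.5 to 8539 in the members. With every cell thinned to 2000 UMIs, which left out 924 shallower cells (105, 278, 189 and 352 in the order of libraries above), the shares of gated cells were 19.5%, 1.54%, 1.25% and 1.81% and those of T cells 0.641%, 0%, 0% and 0%. As point values, the shares of gated cells were above those of T cells in each library at both depths. The thinned shares of 0% rest on 613, 535 and 641 T cells. At full depth the exact intervals overlapped in hucMSC-Exo 1 (gated 0.577% to 5.30%, T cells 0.00388% to 0.852%) and not in the other libraries. At 2000 UMIs a count of 0 allows up to 3 T cells. That limit was above the start of the gated interval in Control 2 and hucMSC-Exo 1, and below it in hucMSC-Exo 2. Among neutrophils (at least 5 S100a8 UMIs, Csf1r absent), a second type that should lack Cxcl9, it was seen in 0 of 37, 0 of 304 and 0 of 85 cells of the first 3 libraries, which allows up to 8.11%, 0.987% and 3.53%, and in 4 of 462 (0.866%) in hucMSC-Exo 2, at median depths of 1875 to 2220 UMIs. In hucMSC-Exo 1 alone this value was above the gated share, of 2.11%. At 2000 UMIs the neutrophil share in hucMSC-Exo 2 was 0.730% (2 of 274), within the interval of the gated share there (0.495% to 4.57%). In Control 1, Control 2 and hucMSC-Exo 1, 0 of 20, 0 of 199 and 0 of 32 neutrophils allow up to 15.0%, 1.51% and 9.38%. The gated intervals there began at 13.2%, 0.422% and 0.152%, below these limits. Such an overlap does not decide whether the shares differ, and neither T cells nor neutrophils were tested against gated cells.

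**Figure D1:**
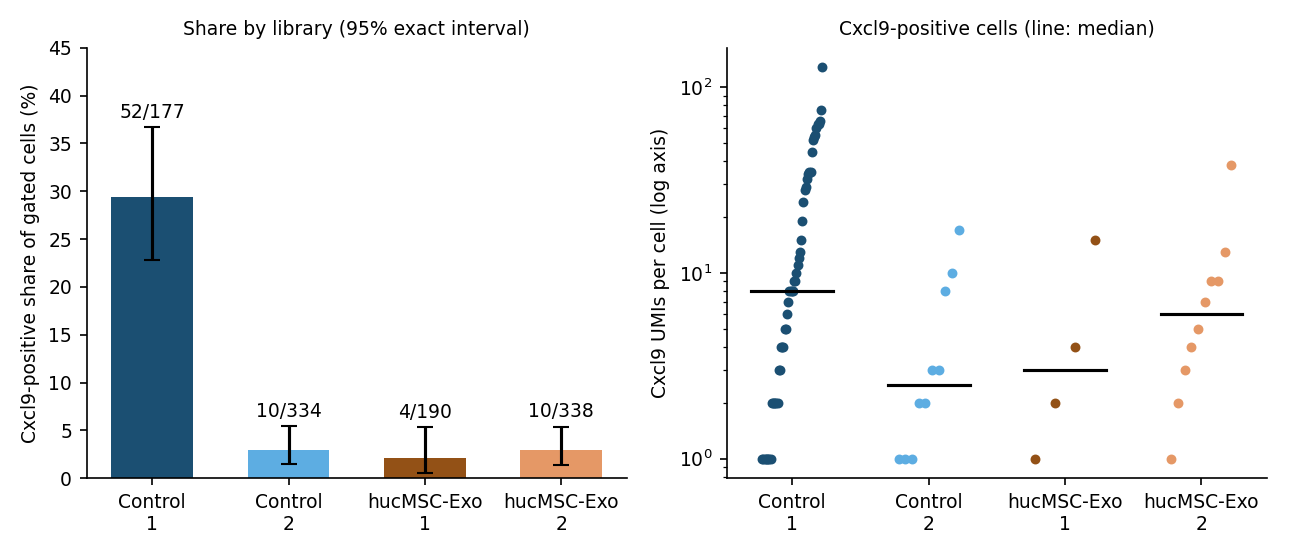
Left, percent of gated Csf1r-positive cells with at least 1 Cxcl9 UMI in each library, with 95% exact intervals and the number of cells. Right, Cxcl9 UMIs in each Cxcl9-positive cell on a log axis, with the median as a line. Control 1 has a share of 29.4% and cells of up to 128 Cxcl9 UMIs, while the other 3 libraries lie between 2.11% and 2.99%.

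Averaged over mice, 16.2% ± 18.7 (SD, n = 2) of gated Control cells and 2.53% ± 0.603 (SD, n = 2) of gated hucMSC-Exo cells were Cxcl9-positive, and the groups differed by -13.7 percentage points. The exact two-sided permutation test of the 4 shares gave p = 0.333, the smallest p that 2 against 2 libraries allow. The difference rested on Control 1: without it, it was -0.462 percentage points, smaller than the spread of the hucMSC-Exo libraries, while without Control 2 it was -26.8. The groups are those of the titles, and the letters on the deposited files instead put Control 1 with hucMSC-Exo 1 and Control 2 with hucMSC-Exo 2. The difference between the 2 Control libraries exceeded that between the groups.

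The amount of Cxcl9 in the members also varied. The median was 8 UMIs per cell in Control 1, 2.5 in Control 2, 3 in hucMSC-Exo 1 and 6 in hucMSC-Exo 2, and the highest cells held 128, 17, 15 and 38. Summed over the members, Cxcl9 reached 2453, 611, 779 and 1526 CPM (counts per 1000000 UMIs) in these libraries. In all, 28 of the 76 cells held 10 or more Cxcl9 UMIs. At the edges of the gate, 13 members held 1 Cxcl9 UMI and 10 held 2, 16 members held 1 Csf1r UMI, and 16 members had 2 of the 7 osteoclast-like genes, while 8 Cxcl9-positive cells with 3 of them were just outside.

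Among the kept cells, Cxcl9 was found mostly, but not wholly, within the gate. Members held 1069 of 1356 Cxcl9 UMIs of the kept cells in Control 1, 48 of 76 in Control 2, 22 of 25 in hucMSC-Exo 1 and 91 of 138 in hucMSC-Exo 2. A further 38 kept cells had Cxcl9 without a Csf1r UMI (142 UMIs). The osteoclast-like exclusion removed 10 cells with 73 Cxcl9 UMIs, and the Cd3g exclusion removed 3 cells with 150, of which 146 were in 1 cell of Control 1. Cells of over 3000 genes, which were not kept, held a further 372, 26, 0 and 12 Cxcl9 UMIs in the order of libraries above. Of these UMIs, 28, 10, 0 and 11 were in cells that passed the rest of the gate.

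The members carried macrophage and monocyte genes. Each of the 14 macrophage and monocyte markers, of which Csf1r was required by the gate, was detected in the members of each library. Lyz2, the lysozyme of myeloid cells, had a UMI in 74 of 76 members, the lysosomal protein gene Cd68 in 66, Adgre1 (F4/80) in 56 and the Fc receptor gene Fcgr1 in 49. The complement gene C1qa was seen in 58 and the monocyte gene Ly6c2 in 26. Of the T cell markers, Cd3e, Trac and Trbc1 were at 0 in all 76 cells, Cd3d had 1 UMI and Trbc2 had 2. Of the dendritic cell markers, Itgae was at 0, Flt3, Xcr1 and Clec9a had 1 UMI each, Fscn1 had 3 and Zbtb46 had 4. Cd209a had 17 UMIs in 6 members, and Ccr7, a receptor of migrating dendritic cells, had 117 UMIs in 11 members. The 8 dendritic cell markers summed to 83.8 to 460 CPM in the members and 97.5 to 459 CPM in the Cxcl9-negative cells, and the part of such cells in the results was not tested.

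The cells were of more than one kind. At least 10 UMIs of C1qa, C1qb and C1qc together were found in 41 of 52 members in Control 1, 5 of 10 in Control 2, 1 of 4 in hucMSC-Exo 1 and 9 of 10 in hucMSC-Exo 2. Among Cxcl9-negative cells this held for 63 of 125, 122 of 324, 65 of 186 and 96 of 328. Ly6c2, which marks inflammatory monocytes, was detected in 20, 3, 2 and 1 members. Over the 4 libraries, 56 members were C1q-high, 26 had Ly6c2, 14 had both and 8 had neither.

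Read the other way, Cxcl9 was found in 39.4% of C1q-high gated cells of Control 1 (95% exact interval 30.0% to 49.5%) and in 15.1% of the other gated cells of that library (7.77% to 25.4%). In hucMSC-Exo 2 the shares were 8.57% (3.99% to 15.6%) and 0.429% (0.0109% to 2.37%). The intervals did not overlap in these 2 libraries. In Control 2 they were 3.94% and 2.42%, and in hucMSC-Exo 1 1.52% and 2.42%, with intervals that overlapped.

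**Figure D2:**
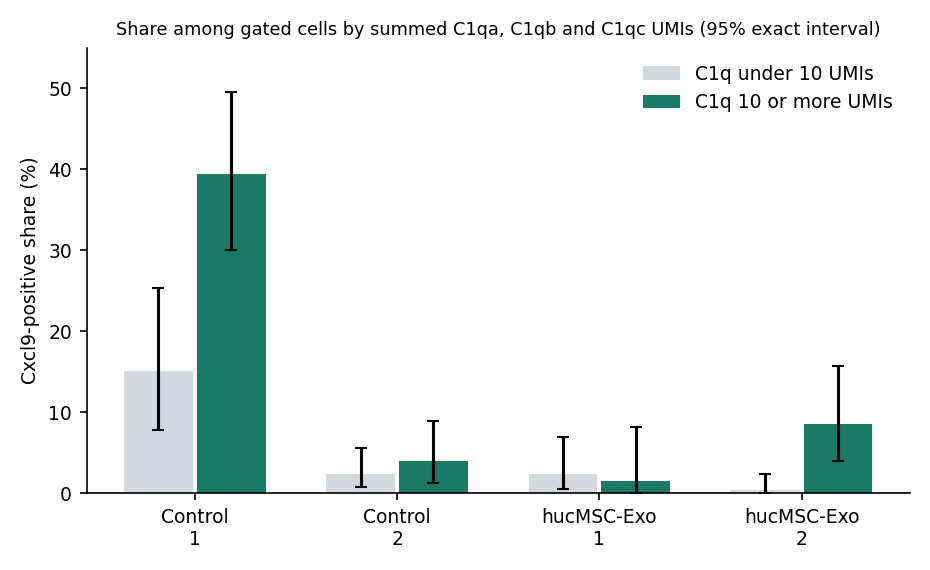
Percent of gated cells with at least 1 Cxcl9 UMI, by library, for cells with under 10 (grey) and with 10 or more (green) UMIs of C1qa, C1qb and C1qc together, with 95% exact intervals. The 2 bars separate in Control 1 (15.1% and 39.4%) and in hucMSC-Exo 2 (0.429% and 8.57%).

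The genes that differ between Cxcl9-positive and Cxcl9-negative cells of the same library were sought in UMIs summed per library and state. Such sums need cells, so hucMSC-Exo 1 with its 4 members was not in the fit, and Control 1, Control 2 and hucMSC-Exo 2 gave 6 sums. Of 5773 genes tested with edgeR's quasi-likelihood test, with the library as a block, 7 were higher (0.121% of the genes tested) and 3 lower (0.0520%) in Cxcl9-positive cells at a Benjamini-Hochberg adjusted p under 0.05. Gbp2, Gbp5, Serpina3g, AW112010, Ccl8, Ccl12 and Saa3 were higher, and Cxcl3, S100a8 and S100a9 were lower. With 10 cells in 2 of the 3 member sums, few sizes of change could be found: on simulated counts for this comparison, 91.8% of genes raised by 2 on the log2 scale were called, and 43.2% of those lowered by 2, but 4% and 14.6% of those changed by 1. These counts had a single dispersion (0.0724) for all genes and no gene ruled by single cells. In the real fit Ccl5 and Thbs1 differed by more than 2 on the log2 scale and were not called, so an uncalled gene may still differ that much.

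Gbp2, a guanylate-binding protein gene induced by interferon-γ, summed to 317 CPM in the members and 67.3 CPM in the Cxcl9-negative cells of Control 1, 165 and 48.4 in Control 2, and 319 and 41.0 in hucMSC-Exo 2. In the 4 cells of hucMSC-Exo 1, outside the fit, it was 106 against 8.37, where the 106 CPM were 3 UMIs. All 4 libraries thus had more Gbp2 in the Cxcl9-positive cells, and the fitted difference was 2.25 ± 0.36 (log2, SE, n = 3 libraries, edgeR adjusted p = 0.0202). Gbp5, a paralog that takes part in inflammasome activation, was at 84.9 against 11.2 CPM in Control 1, 38.2 against 6.00 in Control 2 and 50.3 against 3.90 in hucMSC-Exo 2 (2.96 ± 0.53, edgeR adjusted p = 0.0477), and had no UMI in the 4 members of hucMSC-Exo 1. The Gbp5 sums were thin, with 1 member in Control 2 and 2 in hucMSC-Exo 2 holding all its UMIs. Guanylate-binding protein genes are near-identical in part, and reads may be divided among them.

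Gbp4 is given as a description, and its p is not used, although it stayed in the fit across all genes. It stood at 57.4 against 21.3 CPM in Control 1, 127 against 1.71 in Control 2, 0 against 0.837 in hucMSC-Exo 1 and 33.5 against 3.90 in hucMSC-Exo 2, and was detected in 17 of 52, 6 of 10, 0 of 4 and 2 of 10 members. Most members therefore had no Gbp4 UMI.

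Of the 20 interferon-inducible GTPases listed, 11 were tested, 2 were higher and none was lower. The median log2 difference of the 11 was 1.42, against -0.07 for all genes tested. In each of the 3 libraries 9 of the 11 had more CPM in the Cxcl9-positive cells, which held for 12.6% of all genes. Gbp4, a marker named from these data, was not taken out of this list. The counts, the median and the sums below were not redone without it. Iigp1, a p47 GTPase gene, was at 115 against 19.1 CPM in Control 1, 38.2 against 5.57 in Control 2 and 33.5 against 6.83 in hucMSC-Exo 2, and missed the threshold (edgeR adjusted p = 0.0792). Summed over the 19 listed GTPase genes in the files, the level in the members was 1188, 942, 1133 and 1023 CPM in the order of libraries used above, and in the Cxcl9-negative cells 425, 203, 67.8 and 214. The members of the 4 libraries thus lay between 942 and 1188 CPM, although their number varied from 4 to 52. Of the 19 genes, 2, 4, 9 and 4 had no UMI in the members of these libraries. Counting error is large in sums of so few cells, and the closeness of the 4 values was not tested.

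Serpina3g, a serine protease inhibitor of activated immune cells, was at 108 against 8.97 CPM in Control 1, 153 against 7.28 in Control 2 and 50.3 against 8.78 in hucMSC-Exo 2 (3.56 ± 0.50, edgeR adjusted p = 0.0103). AW112010, a long non-coding RNA gene of inflammatory myeloid cells (chr19:11047612-11055808), was at 1471 against 300 CPM in Control 1, 267 against 91.3 in Control 2 and 1040 against 124 in hucMSC-Exo 2 (2.25 ± 0.35, edgeR adjusted p = 0.0195). It was detected in 48 of 52, 7 of 10 and 7 of 10 members, more widely than Serpina3g with 19, 4 and 2. The 50.3 CPM of Serpina3g in hucMSC-Exo 2 were 3 UMIs.

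**Figure D3:**
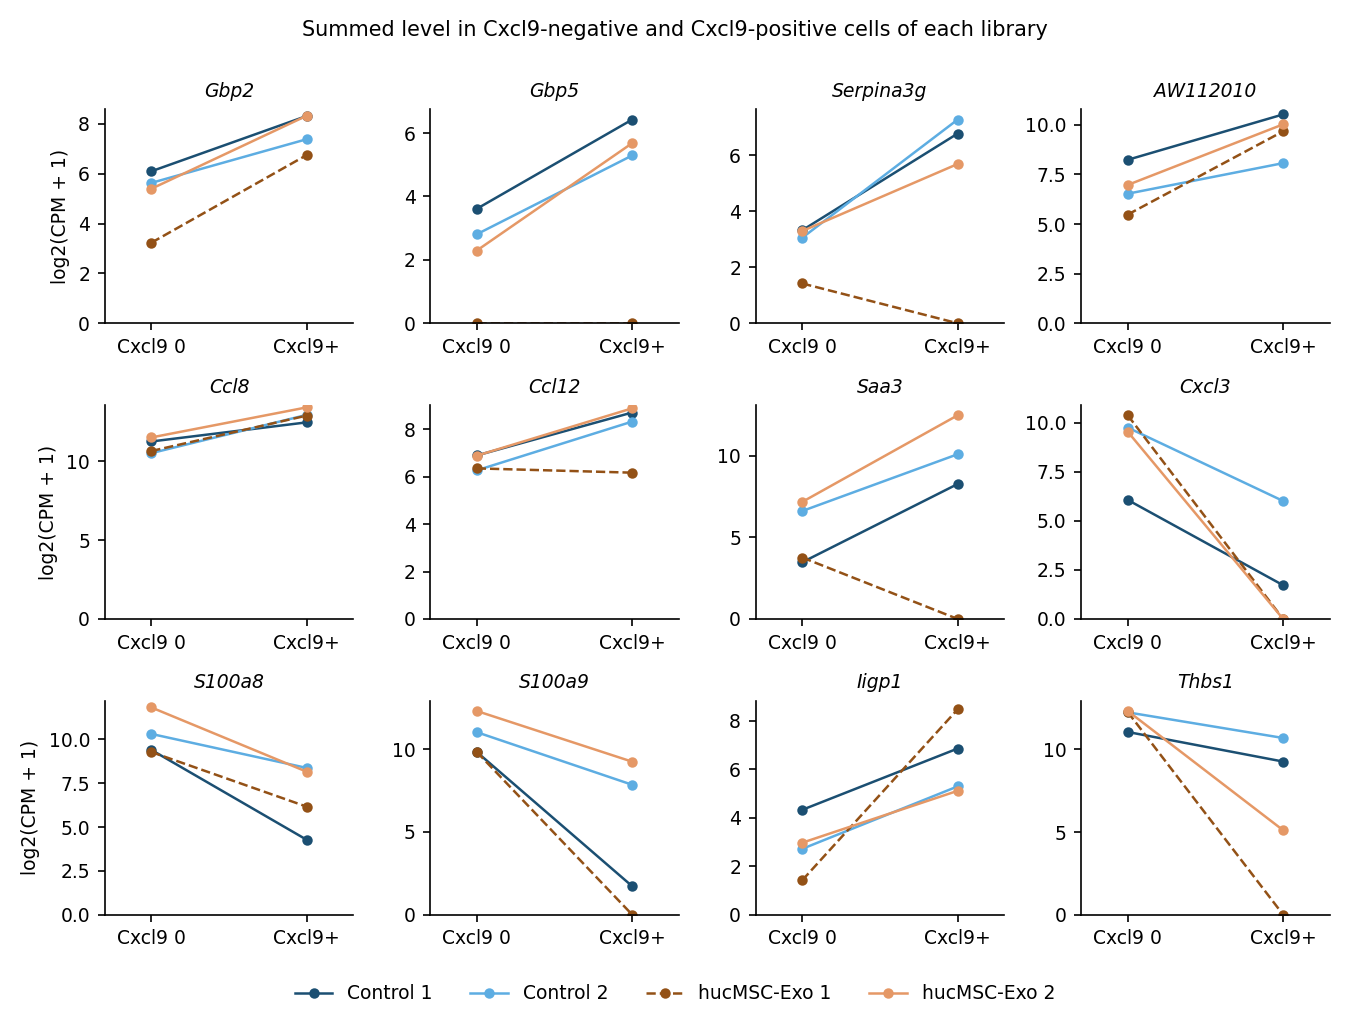
Summed level, as log2(CPM + 1), of the 10 called genes and of Iigp1 and Thbs1 in the Cxcl9-negative (left) and Cxcl9-positive (right) cells of each library. The dashed line is hucMSC-Exo 1, whose 4 members were outside the fit. The solid lines rise for the 7 higher genes and fall for Cxcl3, S100a8 and S100a9.

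Chemokines changed in both directions. Of 17 other chemokine genes, 15 were tested, 2 were higher and 1 lower, with a median of 0.54. Ccl8, which attracts monocytes and T cells, was the most abundant of them. It reached 5630 against 2429 CPM in Control 1, 7816 against 1454 in Control 2 and 10866 against 2899 in hucMSC-Exo 2 (1.76 ± 0.28, edgeR adjusted p = 0.0195), and 7575 against 1597 in hucMSC-Exo 1. A single cell held most of the Ccl8 UMIs of the Control 2 members, and another 98.6% of those of hucMSC-Exo 1. Ccl12, a monocyte-attracting chemokine of mice, was at 415 against 118 CPM in Control 1, 318 against 75.8 in Control 2 and 470 against 117 in hucMSC-Exo 2 (1.88 ± 0.32, edgeR adjusted p = 0.0358), but at 70.8 against 80.4 in hucMSC-Exo 1. Among C1q-high cells alone neither gene was called, with log2 differences of 1.06 for Ccl8 and 1.24 for Ccl12.

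Cxcl3, which attracts neutrophils, was nearly absent from the members. It was at 2.29 against 66.1 CPM in Control 1, 63.6 against 864 in Control 2 and 0 against 747 in hucMSC-Exo 2 (-4.74 ± 0.57, edgeR adjusted p = 0.00452). In the fit, 1 member of Control 1 and 2 of Control 2 held a Cxcl3 UMI. Cxcl2, a chemokine of the same kind, was at 4038 against 3721 CPM in Control 1, 2368 against 4559 in Control 2 and 738 against 5097 in hucMSC-Exo 2 and did not pass the test (-1.22 ± 0.47, edgeR adjusted p = 0.916).

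Ccl5, which attracts T cells, gave 1806 against 253 CPM in Control 1 and 4812 against 104 in hucMSC-Exo 2, but 63.6 against 125 in Control 2 (2.84 ± 0.86, edgeR adjusted p = 0.618). It was detected in 33 of 52 members of Control 1, 3 of 10 of Control 2 and 9 of 10 of hucMSC-Exo 2, so the libraries were unlike. Ccl4 had more CPM in the members of all 4 libraries, from 539 to 1643 against 410 to 563, and did not pass the test (0.84 ± 0.32, edgeR adjusted p = 0.916). Cxcl16 (0.19 ± 0.36) and Ccl2 (0.43 ± 0.48) also did not pass, at edgeR adjusted p = 0.980 and 0.977.

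The other CXCR3 ligand in the files was Cxcl10. It was at 592 against 103 CPM in Control 1 and 204 against 80.1 in Control 2, while hucMSC-Exo 1 and hucMSC-Exo 2 had 35.4 and 50.3 CPM in the members against 51.1 and 75.6 (1.41 ± 0.51, edgeR adjusted p = 0.905). It was detected in 18 of 52, 3 of 10, 1 of 4 and 2 of 10 members, so most Cxcl9-positive cells had no Cxcl10 UMI. The receptor gene Cxcr3 had 3 UMIs in the members of Control 1, 1 in those of hucMSC-Exo 1 and none in the others, where 0 of 78560 and 0 of 59637 UMIs allow up to 38.2 and 50.3 CPM.

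The components of interferon-γ signalling differed less than the GTPases. None of the 10 tested genes passed, 1 was higher and 1 lower in each of the 3 libraries (12.6% and 17.9% of all genes), and their median was -0.01. Ifngr1, the ligand-binding receptor chain, was the most abundant of the list, at 177 against 233, 76.4 against 284 and 252 against 303 CPM (-0.80 ± 0.38, edgeR adjusted p = 0.916). Ifng itself had no UMI in the 76 members.

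The type I interferon-stimulated genes showed no common direction. Of 19 tested, none passed, 10 had a log2 difference above 0, none was higher and 3 were lower in each of the 3 libraries, and the median was 0.17. Ifitm3, which restricts viral entry and was the most abundant of them, was at 1319 against 2042 CPM in Control 1, 1629 against 1551 in Control 2 and 1308 against 2344 in hucMSC-Exo 2 (-0.55 ± 0.29, edgeR adjusted p = 0.916). In the 4 members of hucMSC-Exo 1 it was 2761 against 1160.

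No gene of MHC class I presentation passed the test. All 18 tested genes had a log2 difference above 0, 14 of them were higher in each of the 3 libraries and in hucMSC-Exo 1 as well, and the median was 0.53. B2m, the invariant light chain, was at 4790 against 3893 CPM in Control 1, 5181 against 3118 in Control 2, 6003 against 3109 in hucMSC-Exo 2 and 6761 against 1996 in hucMSC-Exo 1 (0.57 ± 0.24, edgeR adjusted p = 0.916). Psmb10, a subunit of the immunoproteasome that cuts peptides for class I, was at 220 against 141, 242 against 97.3 and 218 against 90.7 CPM (0.97 ± 0.33, edgeR adjusted p = 0.831).

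MHC class II was abundant in both states. Of 9 genes tested, none passed, 2 were higher in each of the 3 libraries and the median was 0.33. Cd74, the invariant chain, was at 13368 against 9855 CPM in Control 1, 9381 against 10795 in Control 2 and 10748 against 8100 in hucMSC-Exo 2 (0.13 ± 0.24, edgeR adjusted p = 0.980). Of 13 tested T cell co-signal and cytokine genes none passed (median 0.33). Cd274, which encodes the inhibitory ligand PD-L1, was at 172 against 161 CPM in Control 1, 407 against 252 in Control 2 and 50.3 against 194 in hucMSC-Exo 2.

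**Figure D4:**
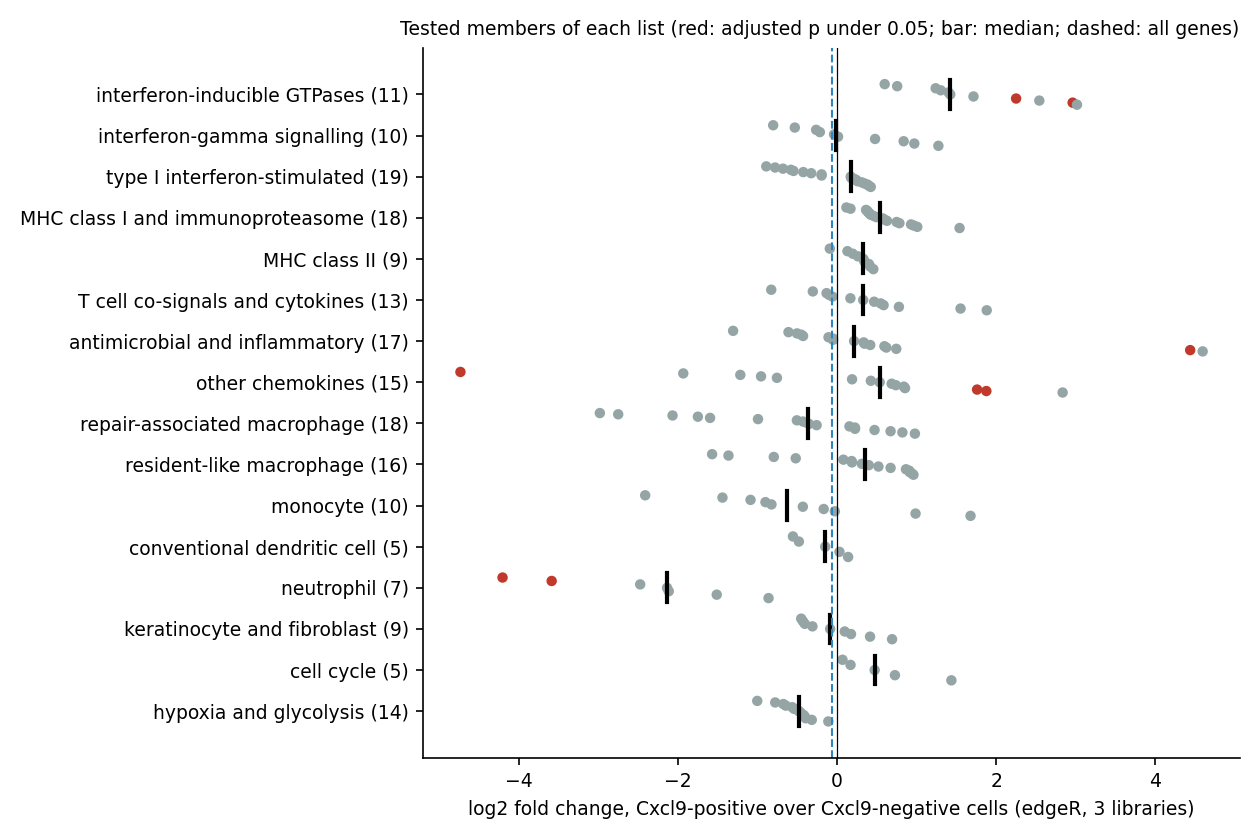
Log2 fold change of each tested gene, Cxcl9-positive over Cxcl9-negative cells, by list, with the number tested in brackets, for lists with at least 5 tested genes. Red points passed an adjusted p of 0.05, black bars are medians and the dashed line is the median of all genes. The GTPases have a median of 1.42 and the neutrophil genes of -2.14.

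Among 17 tested antimicrobial and inflammatory genes, 1 was higher and none lower (median 0.21). It was Saa3, a serum amyloid A gene of the acute phase, at 305 against 10.1 CPM in Control 1, 1082 against 96.4 in Control 2 and 5651 against 142 in hucMSC-Exo 2 (4.44 ± 0.41, edgeR adjusted p = 0.000386). It was found in 9 of 52, 3 of 10 and 7 of 10 members, and 1 cell of hucMSC-Exo 2 held 75.1% of that sum, while the 4 members of hucMSC-Exo 1 held none. Nos2, the inducible nitric oxide synthase, came from 2 members in Control 1 (82.6 CPM) and 2 in Control 2 (458 CPM), and was at 0 in the members of both hucMSC-Exo libraries. Il1b, the most abundant of the list, was at 2221 against 1712 CPM in Control 1, 3959 against 2802 in Control 2 and 453 against 2894 in hucMSC-Exo 2 (-0.50 ± 0.53, edgeR adjusted p = 0.975).

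The neutrophil genes S100a8 and S100a9 were lower. S100a8 was at 18.4 against 678 CPM in Control 1, 331 against 1274 in Control 2 and 285 against 3637 in hucMSC-Exo 2 (-3.59 ± 0.49, edgeR adjusted p = 0.0103), and S100a9 at 2.29 against 907, 229 against 2078 and 604 against 5048 (-4.21 ± 0.61, edgeR adjusted p = 0.0131). Both encode calprotectin, which neutrophils and also monocytes make. All 7 tested genes of the neutrophil list were lower in each of the 3 libraries, against 17.9% of all genes, with a median of -2.14. The 5 neutrophil markers summed to 70.8 to 1023 CPM in the members and 1586 to 8949 CPM in the Cxcl9-negative cells. In the Cxcl9-negative cells of the 3 fitted libraries most of this sum was S100a8 and S100a9 themselves. Of the 5, Csf3r was detected in 31.6% of all members and 29.4% of all Cxcl9-negative cells, and the others in a smaller share of the members. Ly6g, which defines neutrophils, was at 0 in the members and at most 3.43 CPM in the Cxcl9-negative cells. Whether neutrophil RNA in the comparison cells set these differences was not tested.

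No gene of the macrophage lists passed the test. Of 16 tested resident-like macrophage genes 5 were higher and 4 lower in each of the 3 libraries, and the median was 0.36. C1qa was at 2836 against 1969 CPM in Control 1, 1833 against 1042 in Control 2 and 4343 against 1242 in hucMSC-Exo 2 (0.96 ± 0.29, edgeR adjusted p = 0.599). Apoe, an apolipoprotein gene and the most abundant of the list, was at 13375 against 13713, 7892 against 6550 and 15745 against 8093 CPM (0.31 ± 0.24, edgeR adjusted p = 0.965). Of 18 tested repair-associated genes 2 were higher and 5 lower in each library, and the median was -0.37. Thbs1, which encodes the matrix protein thrombospondin-1, was at 615 against 2131 CPM in Control 1, 1655 against 4854 in Control 2 and 33.5 against 5140 in hucMSC-Exo 2, and had no UMI in the 4 members of hucMSC-Exo 1 against 4922 CPM (-2.75 ± 0.69, edgeR adjusted p = 0.365).

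None of the 10 tested monocyte genes passed (median -0.63), of which Plac8, the most abundant, was at 484 against 795, 1642 against 878 and 33.5 against 1761 CPM. None of the 14 hypoxia and glycolysis genes passed (median -0.48), and Gapdh stood at 1335 against 1242, 942 against 1151 and 721 against 1332 CPM. The lists of dendritic cell (5 tested, median -0.15), keratinocyte and fibroblast (9, -0.09) and cell cycle genes (5, 0.47) held no called gene, nor did the T and NK cell list and the osteoclast-like list with 1 tested gene each, Cd4 (1.52 ± 0.67) and Ctsk (-0.18 ± 0.62). Tubb5, the most abundant cell cycle gene, was at 266 against 288, 420 against 190 and 335 against 206 CPM.

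The calls depended on the cells and libraries used, while the direction of each did not in any alternative in which it was tested. Without Control 2 none of the 10 was called by edgeR (0 of 6047 genes, 174 at an unadjusted p under 0.05), without Control 1 3 of the 7 higher and the 3 lower genes were still called, without hucMSC-Exo 2 5 and 3, and with cells of over 3000 genes kept only the 3 lower genes were. When Cxcl9-negative cells were matched 1 to 1 on total UMIs, 1076 genes were left to test and Saa3 alone was called. In C1q-high cells alone Gbp2, Saa3, Serpina3g and Cxcl3 were called, while Ccl8, Ccl12, AW112010 (1.97) and S100a9 (-3.71) were not, and Gbp5 and S100a8 had too few UMIs to be tested.

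Within Control 1, which had cells enough to be divided, the members were ordered by their Cxcl9 UMIs, as a description of 1 library. The 125 cells without Cxcl9, the 8 with 1 UMI, the 21 with 2 to 9 and the 23 with 10 or more had median depths of 7535, 7899, 7574 and 8883 UMIs. Gbp2 stood at 67.3, 126, 276 and 408 CPM in these cells, and Serpina3g went from 8.97 CPM without Cxcl9 and 31.5 with 1 UMI to 180 with 10 or more. AW112010 was at 300, 568, 1650 and 1603 CPM and Ccl5 at 253, 1467, 1908 and 1827. Single cells weighed on these sums: without the highest cell of each sum, Gbp2 was at 52.1, 49.5, 179 and 359 CPM, so that the cells with 1 UMI were no higher than those without Cxcl9. Gbp2 and Serpina3g were thus highest in the cells with most Cxcl9, while Ccl5 was at 767 CPM in the cells with a single Cxcl9 UMI even without its highest cell. Thbs1 was at 2131 CPM without Cxcl9 and at 315, 762 and 588 with it, and S100a8 at 678 CPM without it and at 0, 42.0 and 4.86 with it.

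**Figure D5:**
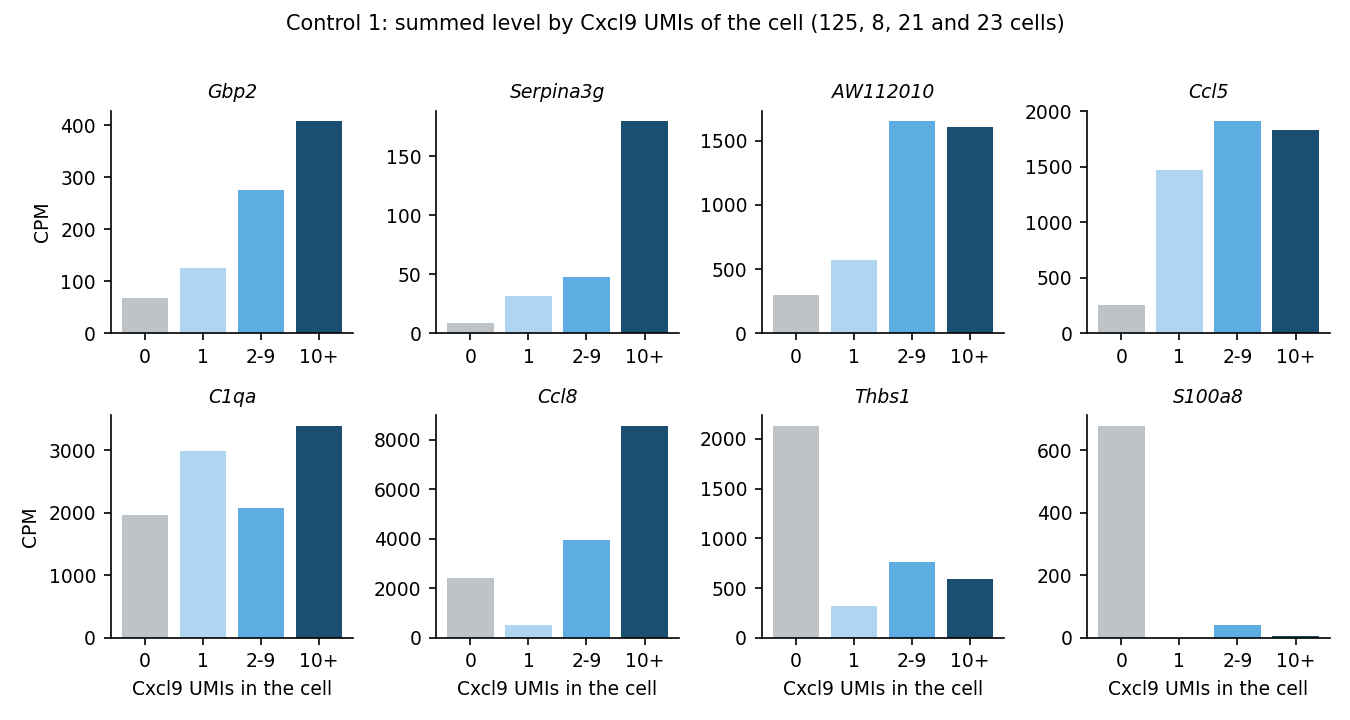
Summed CPM of 8 genes in the gated cells of Control 1, by the number of Cxcl9 UMIs in the cell (0, 1, 2 to 9, 10 or more, with 125, 8, 21 and 23 cells). Bars are single sums without replicates. Gbp2 goes from 67.3 to 408 CPM, and Thbs1 and S100a8 are highest in the cells without Cxcl9.

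Between the groups, the Cxcl9-positive cells could be compared only with the 4 cells of hucMSC-Exo 1 counted as a library. On these terms edgeR called 0 of 1004 genes (0%), with 67 at an unadjusted p under 0.05, and DESeq2 called 5. Cxcl10 was at 592 and 204 CPM in the Control libraries and 35.4 and 50.3 in the hucMSC-Exo libraries, without overlap (-3.22 ± 0.84, edgeR adjusted p = 0.512). Cxcl2 was at 4038 and 2368 CPM against 814 and 738 (-2.12 ± 0.37, edgeR adjusted p = 0.254), where the 814 CPM came from 1 cell. Ccl5 was at 1806 and 63.6 CPM in the Control libraries against 4850 and 4812 in the hucMSC-Exo libraries, which was higher and also without overlap. Ccl4, at 539 and 840 against 1133 and 1643 CPM, was likewise higher without overlap. The share of all genes that separate in this way was not counted, so the lack of overlap is a description only. Cxcl16, at 851 and 687 against 920 and 319 CPM, and Ccl2, at 197 and 293 against 142 and 1928, overlapped. Sums of 28249 and 59637 UMIs in the hucMSC-Exo members limit these values.

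Whether the difference between Cxcl9-positive and Cxcl9-negative cells itself differed between the groups was fitted with both Control libraries and hucMSC-Exo 2, so that the lone hucMSC-Exo library was assumed to vary like the Control libraries. Of 7860 genes, 7 had a higher (0.0891%) and 82 a lower (1.04%) difference in hucMSC-Exo 2, and 34 of the 82 had no UMI in its 10 members. Of the 89 genes, 28 held at least 3 UMIs in every sum. Among them Ly6c2 was at 413 against 404 CPM in Control 1, 929 against 315 in Control 2 and 83.8 against 679 in hucMSC-Exo 2 (-4.22 ± 0.76, edgeR adjusted p = 3.33e-05). The 83.8 CPM were 5 UMIs of 1 cell, and in hucMSC-Exo 1, outside the fit, Ly6c2 went the other way, with 1027 against 50.2 CPM. DESeq2 called 15 genes in this fit, and the call for a group rests on 10 cells of 1 mouse.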

How the data were processed

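Single-cell RNA was measured in 4 libraries. The deposited values are whole-number UMI counts per gene and cell, which the authors made with Cell Ranger 6.1.2 on mm10 from 10x libraries, without normalization, and the submitters' processing notes name the same tool. The barcode and feature files hold names only. Group and replicate came from the titles. The letters carried by the deposited files pair the libraries in another way, so each direction between groups rests on the titles. The members and the gene lists were chosen with earlier results of these data known.

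UMIs were summed per library and state, and libraries with at least 10 cells in each state were fitted in edgeR 4.0.16 (R 4.3.3) with TMM normalization, filterByExpr, the library as a block and Benjamini-Hochberg adjustment at 0.05. The 10 gate genes were left out of the test, and only genes listed in every library entered it. CPM are counts per 1000000 UMIs of a sum. SE was taken from the log2 fold change and the F statistic. Differences between the groups used the same test, shares an exact permutation test (scipy 1.17.1) and 95% exact Clopper-Pearson intervals. Intervals and the limit of 3 counts for a count of 0 cover counting error only. Each library is 1 mouse, and p-values measure the spread between the mice fitted. A fit with a single library of a group, as for the difference of the state effect, holds no spread between mice of that group.

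The genes named were the gate genes, the members of each list past the threshold (at most 4) with its most abundant tested member, called genes outside the lists at 50 CPM or more that changed alike in every library, and the chemokines Cxcl9, Cxcl10, Cxcl16, Cxcl2, Ccl2, Ccl4 and Ccl5. Cxcr3, Ifng, Iigp1, Irf1, Ly6g, Nos2, Psmb10 and C1qa as a list member were chosen after their values were seen, as was the limit of 3 UMIs in every sum for genes with a differing group effect. Doublets were not removed here. Scrublet (scanpy 1.11.5) marked 30 of the 6443 kept cells (0.466%) and no member, so few that whether it worked cannot be told. The authors report removing doublets with DoubletFinder, and whether the deposited cells had passed that step was not tested. The test was checked on simulated counts with 200 changed genes and a common dispersion for all genes. Whether same-numbered libraries deviate together was checked by the correlation of Control 1 minus Control 2 with hucMSC-Exo 1 minus hucMSC-Exo 2 over 5773 genes, which was -0.0289 in the members and -0.173 in the Cxcl9-negative cells, and no label ties the numbers to a shared animal or day. Alternatives with DESeq2 1.42.0 and other gates, filters and libraries are given in the closing section. Some genes of the lists are not reported here.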

Additional observations from a re-analysis of the deposited data

Results flagged for a closer look

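For Cxcl10, Cd274 and Il1b, both Control libraries had more CPM in the Cxcl9-positive than in the Cxcl9-negative cells and both hucMSC-Exo libraries had less, and this difference between the groups was not tested. For Cxcl10 the mean difference between the states was 306 CPM in the Control group and -20.5 CPM in the hucMSC-Exo group. It was 82.8 and -113 CPM for Cd274, the PD-L1 gene, and 833 and -1467 CPM for Il1b. The hucMSC-Exo 1 values rest on 4 cells. The Cxcl10 sums of the hucMSC-Exo members were no higher than 3 UMIs, which equal 106 CPM in hucMSC-Exo 1 and 50.3 CPM in hucMSC-Exo 2. For Cd274 the difference in Control 1 was 10.7 CPM. These genes were picked from the named genes for their opposite signs, and the share of all genes with such signs was not counted.

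Other genes had a difference between the states that itself differed between hucMSC-Exo 2 and the 2 Control libraries by edgeR's interaction test, given as log2 and limited to genes with at least 3 UMIs in every sum. As hucMSC-Exo 2 was the only hucMSC-Exo library in this fit, no spread between hucMSC-Exo mice was measured. Ccl5 differed by 3.47 ± 0.63 (edgeR adjusted p = 4.74e-05), Fcrls by 3.39 ± 0.70 (0.000505), Cbr2 by 3.11 ± 0.73 (0.00471) and the monocyte chemokine gene Ccl2 by 2.35 ± 0.59 (0.0101). In the lower direction these were Ly6c2 with -4.22 ± 0.76 (3.33e-05), S100a4 with -3.75 ± 0.75 (0.000291), the interleukin gene Il1b with -3.54 ± 0.69 (0.000167), Clec4e with -3.48 ± 0.81 (0.00381) and Ier3 with -3.45 ± 0.73 (0.000908). The 2 Control libraries were unlike for Ccl5, with 1806 against 253 CPM in Control 1 and 63.6 against 125 in Control 2. Fcrls was at 436 against 85.3 CPM in hucMSC-Exo 2, from 4 members. In hucMSC-Exo 1, which was not in this fit, Ly6c2 was at 1027 against 50.2 CPM and S100a4 at 3257 against 3221, unlike hucMSC-Exo 2 with 83.8 against 679 and 151 against 1997. The mix of cells also differed: 9 of 10 hucMSC-Exo 2 members and 29.3% of its Cxcl9-negative cells were C1q-high, against 41 of 52 and 50.4% in Control 1 and 5 of 10 and 37.7% in Control 2, and the part of this in the differences was not tested.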

How the results depend on the processing

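Alternatives with hucMSC-Exo 1 kept, without the highest cell of each gene, with C1q-high cells only, and with Cxcl9 at 2 or more UMIs at a minimum of 5 cells were chosen after seeing the data. The minimum of 10 cells leaves 1 library at Cxcl9 of 2 or more UMIs, so that planned form gave no value. Against 7 higher and 3 lower genes, DESeq2 called 13 and 5, no filter on low counts 17 and 16, depth matching 1 and 0, no library block 3 and 0, and the fit with hucMSC-Exo 1 kept 14 and 16. Keeping cells of over 3000 genes left 0 higher genes (309 genes at an unadjusted p under 0.05, all 7 still with a log2 difference above 0), and C1q-high cells alone called 3 higher genes. Without the osteoclast-like exclusion 1 lower gene was called, Fn1, which is none of the 3. Gbp4 is among the 13 genes of DESeq2. Without 1 library in turn, the counts ranged from 0 to 7 higher and from 0 to 25 lower genes, with 0 of each without Control 2 and 25 lower without Control 1. The causes were not tested, apart from the fewer genes tested under depth matching. The share difference of -13.7 percentage points kept its sign in all alternatives, from -26.8 to -0.462 without 1 library in turn. The replicate block left it at -13.7 (exact p = 0.5, the smallest that 2 pairs allow). The groups overlapped, with an exact permutation p of 0.667, under thinning, at Cxcl9 of 2 or more UMIs, without the osteoclast-like exclusion and over all kept cells. In each of these hucMSC-Exo 2 was above Control 2, with 1.81% against 1.54% under thinning.

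Between the groups, against 0 called genes, DESeq2 called 5 and no filter 30, with 0 to 44 without 1 library in turn. The highest of these was without hucMSC-Exo 1, and leaving out hucMSC-Exo 2 gave 16. The replicate block called 0 and the crossed pairing 0. For the difference of the state effect, against 89 genes, DESeq2 called 15, no filter 27, Cxcl9 at 2 or more UMIs 48, hucMSC-Exo 1 kept 42, that with the replicate block 22, and 23 to 25 without 1 of the other libraries in turn. Without hucMSC-Exo 1 kept, leaving out a library leaves no residual degree of freedom or no hucMSC-Exo library.

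Of 32 named genes, the sign turned in 24 of 466 values, none of them of a gene called between the states. Without 1 library in turn, the log2 difference ranged from -0.25 to 0.33 for Cd74, -0.64 to 0.36 for Cd274, -1.35 to 0.42 for Il1b, -2.46 to 0.070 for Plac8, -1.86 to 0.73 for Ccr7, -0.55 to 0.23 for Ctsk, -0.49 to 0.55 for Cxcl16 and -0.46 to 0.82 for Ccl2. Keeping hucMSC-Exo 1 turned Cd74 to -0.019, Apoe to -0.094 and Ccr7 to 0.015. In C1q-high cells Cd74 turned to -0.056, Apoe to -0.24, Ctsk to 0.56, Cxcl16 to -0.15 and Ccl2 to -0.30. At Cxcl9 of 2 or more UMIs Cd274 turned to 0.077, Ccr7 to 0.044 and Tubb5 to -0.071. No filter turned Cd74 to -0.10 and Cxcl16 to -0.043, depth matching turned Cd274 to 0.24 and Ccr7 to 0.73, and cells of over 3000 genes turned Ccr7 to 0.24. Sums of 28249 to 78560 UMIs in 3 of the 4 member sets limit every value of a low gene.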

Other observations

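Interferon-γ RNA was looked for outside the Cxcl9-positive cells. Ifng, the gene of the cytokine known to induce Cxcl9, had a UMI in 28 of 525 T cells of Control 1 (5.33%), 42 of 704 of Control 2 (5.97%), 19 of 652 of hucMSC-Exo 1 (2.91%) and 20 of 740 of hucMSC-Exo 2 (2.70%). Summed over the T cells it was at 44.2, 24.8, 19.6 and 13.3 CPM, and the median T cell held 3954, 4392.5, 3363 and 4310 UMIs. Of all kept cells, 4.83%, 3.18%, 2.26% and 2.10% had an Ifng UMI. Cxcr3, the receptor of the chemokine, had a UMI in 27, 48, 12 and 28 of these T cells (5.14%, 6.82%, 1.84% and 3.78%).

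Cxcl9-negative cells also varied in the genes that were higher in the members. The summed GTPase level of 425 CPM in the Cxcl9-negative cells of Control 1 was above those of the other 3 libraries (67.8 to 214), and that library had the highest Cxcl9-positive share. Irf1, an early interferon-γ target, was at 164 CPM in the Cxcl9-negative cells of Control 1 and at 28.3, 53.6 and 48.3 CPM in those of Control 2, hucMSC-Exo 1 and hucMSC-Exo 2. These values are of single libraries and were not tested.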
